A study of Homo sapiens with 6 samples.

Results

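The human metallothionein genes lie side by side on the long arm of chromosome 16. Of these, 8 were described here, namely MT2A, MT1E, MT1M, MT1A, MT1F, MT1G, MT1H and MT1X in their order along the chromosome, out of 62663 annotated genes of which 20033 code for proteins. They were chosen by name, with earlier results of these data known. A peak was counted for a gene when it shared at least 1 bp with the gene or with the 1 kb on either side of it.

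Metallothioneins are small proteins rich in cysteine that bind zinc, copper and cadmium. The liver makes them in quantity, and MT2A and the MT1 genes are known for strong induction by metals. The zinc-sensing factor MTF1 binds short metal response elements in front of these genes and recruits the transcription machinery. Acetylation of histone lysines marks active promoters and enhancers, whereas lysine benzoylation is an aromatic acyl mark that is supplied by benzoyl-CoA.

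The data were ChIP-seq peak lists from cells labelled HepG2, a line from a human liver tumour, which had been kept without sodium benzoate (SB) or with it at 10 mM for 24 h. In this assay the DNA wrapped around antibody-bound histones is sequenced. One antibody recognised any acetylated lysine (Kac) and the other any benzoylated lysine (Kbz), so the residue that carried the mark is not known. There were 6 libraries in 6 groups, 1 per group, and peak lists of 3 of them were used, holding 70326 (control Kac), 63282 (SB Kac) and 24308 (SB Kbz) peaks. Control Kbz had no peak list here, so Kbz has no untreated counterpart, and the inputs were not analysed. Whether untreated cells carried Kbz at these genes cannot be read from this. With 1 library per group the lists have no replicate error, no test was possible, and the sequencing depth behind each list is unknown. The fold of a peak, its read density over background as the authors' peak caller gave it, was therefore compared within its own list only, as a percentile among all peaks of that list.

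The label of the line was checked against marker genes of liver. None of 10 liver markers, ALB, AFP, APOA1, APOB, TTR, SERPINA1, TF, FGB, HNF4A and FOXA2, had its canonical transcription start site (TSS) under a peak of any of the 3 lists. Within the gene and 1 kb around it, 4 of the 10 had control Kac, 5 had SB Kac and 2 had Kbz, and ALB had no peak at all. Of 8 markers of other cells, 6 had control Kac, 6 SB Kac and 3 Kbz within this window, and 1, COL1A1, had its TSS under a Kac peak, in both Kac lists, and none under Kbz. Over all protein-coding genes the window held a peak at 80.1% (control Kac), 79.0% (SB Kac) and 68.9% (Kbz), and the TSS was covered at 59.1%, 60.4% and 45.8%. At the liver markers the peak lists thus went against the label, and the cells are called by their label below. The part of this in the metallothionein results was not tested.

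Sequences in front of the start sites are shown first, since the members are copies of each other and metal response elements are known in front of many of them, while the marks were found at 4 of the 8 only. Each line gives the 250 bases before the canonical TSS in hg38, 5′ to 3′ in the direction of the gene, and capitals mark matches to the core of the metal response element, TGCACNC or TGCGCNC, on either strand. MT2A and MT1X carried peaks of all 3 lists over the TSS, and MT1H carried none.
MT2A (chr16:56608334-56608583, plus strand): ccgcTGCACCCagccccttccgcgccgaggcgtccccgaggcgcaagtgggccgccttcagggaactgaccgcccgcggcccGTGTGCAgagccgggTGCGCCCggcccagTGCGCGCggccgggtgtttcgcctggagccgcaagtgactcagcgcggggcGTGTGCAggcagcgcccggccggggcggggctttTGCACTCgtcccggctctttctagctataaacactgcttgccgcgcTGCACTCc
MT1X (chr16:56682220-56682469, plus strand): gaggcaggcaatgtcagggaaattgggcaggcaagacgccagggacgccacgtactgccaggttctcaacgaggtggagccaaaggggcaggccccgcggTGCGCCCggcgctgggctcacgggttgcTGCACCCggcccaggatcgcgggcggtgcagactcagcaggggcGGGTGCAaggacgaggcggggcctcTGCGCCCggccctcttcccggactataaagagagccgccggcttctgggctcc
MT1H (chr16:56669564-56669813, plus strand): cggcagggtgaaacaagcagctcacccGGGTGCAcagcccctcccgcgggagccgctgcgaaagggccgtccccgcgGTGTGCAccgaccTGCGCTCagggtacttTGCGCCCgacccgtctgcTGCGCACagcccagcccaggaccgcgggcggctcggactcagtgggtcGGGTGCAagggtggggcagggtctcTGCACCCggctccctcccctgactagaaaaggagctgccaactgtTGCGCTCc

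All 8 members held at least 1 match in these 250 bases, against 30.8% of 20032 protein-coding promoters of the same length. At least 3 matches were found in 7 of the 8, against 2.18% of the promoters. The GC content of these bases was 70% to 74% in the members, against a median of 63.2% over the promoters. The part of GC content in the match counts was not tested. MT1H had 8 matches, MT2A 7, MT1F 6, MT1G 5, MT1X 4, MT1E and MT1M 3 each, and MT1A 1. The 4 members with peaks had 3 to 7 matches and the 4 without had 1 to 8, so the counts overlapped and did not separate the groups. MT1E is counted with peaks for those at the end of its gene, and its TSS was under none. Of the 37 matches 4 overlapped a GC box, GGGCGG, in MT1M, MT1A, MT1F and MT1X, and none overlapped the other motifs searched. A match is a run of letters and does not show that MTF1 was bound.

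Other promoter features were counted in the same bases, with the members grouped in the same way, so MT1E is again counted with peaks. At MT1E all 250 of these bases and at MT1F 228 of them are annotated exon of the same gene, before its canonical TSS. A TATA box, TATAAA, was present in 3 of the 4 members with peaks (MT2A, MT1E and MT1X) and in 1 of the 4 without (MT1G), against 9.35% of all coding promoters. Grouped by a peak over the TSS instead, MT2A and MT1X had the box and MT1F did not. Of the members with no peak there, MT1E and MT1G had it and MT1M, MT1A and MT1H did not. A GC box was found in all 8 members and in 59.0% of coding promoters. The antioxidant response element core TGACNNNGC occurred in MT2A and MT1X, both with peaks, and in 0 of the 4 members without, against 11.4% of promoters. MT1E and MT1F, also with peaks, did not have it. These matches too are runs of letters and do not show which factor, if any, was bound. The CpG ratio, observed over expected CpG in the same bases, was between 0.66 and 0.96 in the members with peaks and between 0.71 and 0.77 in those without, with a median of 0.75 over coding promoters. At MT1E it was 0.81.

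The lists bear on whether Kac at these genes differed between control and SB-treated cells, and on whether Kbz in treated cells lay where Kac was. Of the 8 genes, 4 carried peaks, and they were the same genes in each list: MT2A, MT1E, MT1F and MT1X. MT1M, MT1A, MT1G and MT1H had no peak of any list. So 4 of 8 members were marked in control Kac, where 80.1% of protein-coding genes had a peak by this rule, 4 of 8 in SB Kac, against 79.0%, and 4 of 8 in SB Kbz, against 68.9%. Peaks of all 3 lists were present at 68.1% of protein-coding genes and no peak of any list at 17.7%. No member had Kac in one condition only, a state of 3.04% of coding genes for control and 1.87% for SB, and none had SB Kac without Kbz, which was found at 10.6%. These genes are short, from 914 to 2968 bp, and a long gene has more room for a peak, so the TSS was also counted. The canonical TSS was under a peak at 3 of the 8, MT2A, MT1F and MT1X, in each list, against 59.1% (control Kac), 60.4% (SB Kac) and 45.8% (Kbz) of coding genes.

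**Figure D1:**
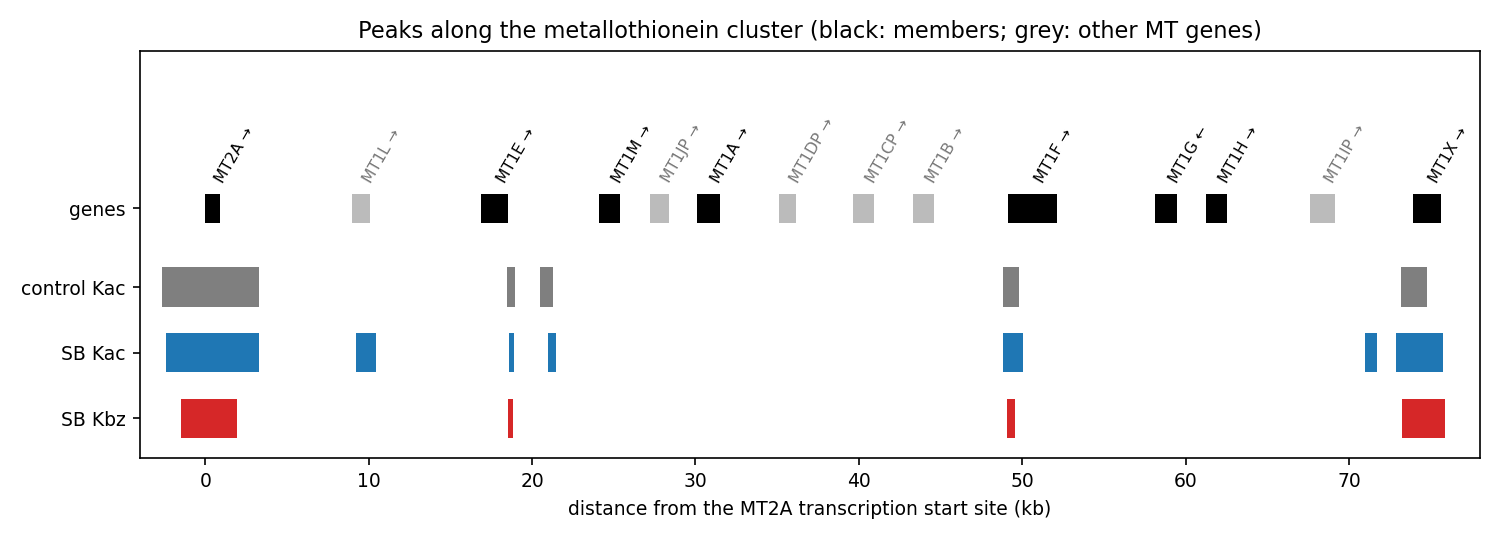
Peaks of control Kac, SB Kac and SB Kbz (bars, 1 library per list) along the cluster, as distance in kb from the TSS of MT2A, with the 8 members in black, other MT genes and pseudogenes in grey and arrows for the direction of transcription. Peaks of all 3 lists sit at MT2A, behind MT1E, at MT1F and at MT1X, and no list has a peak at MT1M, MT1A, MT1G or MT1H.

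From the first base of MT2A (56608584) to the last of MT1X (56684196) the cluster measured 75613 bp. Control Kac peaks covered 9.58% of it, SB Kac peaks 13.3% and Kbz peaks 6.67%. Over the whole of chromosome 16 these lists covered 4.78%, 4.69% and 1.51%. The stretches are unlike, since the cluster is rich in genes and bounded by marked members, whereas the chromosome also holds stretches with no genes. Much of the covered sequence belonged to the ends of the cluster. The peaks at MT2A and MT1X made up 68.0% of the bases covered by control Kac, 59.8% of those by SB Kac and 85.4% of those by Kbz. Read from left to right, the list of control Kac had 5 peaks, SB Kac 7 and Kbz 4. Each Kbz peak was at a member, whereas 1 control Kac and 3 SB Kac peaks lay beyond the reach of any member.

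MT2A, the abundant and widely expressed human metallothionein, had the broadest marks. It lies on the plus strand from 56608584 to 56609497. In control cells the Kac peak, of 5940 bp, lay between 56605942 and 56611881. In SB-treated cells it had 5707 bp, between 56606185 and 56611891. The Kbz peak had 3374 bp, between 56607126 and 56610499. Each of them covered all 3 exons and the whole of the gene with its 1 kb flanks. With the TSS counted as 0 the control Kac peak began at -2642, the SB Kac peak at -2399 and the Kbz peak at -1458, and they ended at 3297, 3307 and 1915. The Kac peaks were thus nearly alike in extent, with 95.9% of the control peak shared, and the Kbz peak lay wholly inside both. The MT2A peak was longer than 95.9% of the SB Kac list and 96.1% of the Kbz list. Its fold was moderate, with percentiles of 80.2 (control Kac), 82.4 (SB Kac) and 48.5 (Kbz). The peaks also covered part or all of the lncRNA ENSG00000260823, which runs on the minus strand behind MT2A, so the peaks belong to either gene.

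MT1X, at the other end of the cluster (56682470 to 56684196, plus strand), had the strongest marks of the 8 genes. Its folds of 6.23 (control Kac), 6.62 (SB Kac) and 5.68 (Kbz) stood at percentiles 98.9, 97.8 and 85.4 of their lists. The corresponding -log10 q values were 14.3, 18.7 and 11.9. Kac occupied 56681752 to 56683378 in control cells and 56681478 to 56684362 in SB-treated cells, and Kbz occupied 56681805 to 56684471. In control cells acetylation was called over the TSS and exons 1 and 2 and ended at position 908. In SB-treated cells it was called over all 3 exons and ended at 1892, behind the gene. The Kbz peak ended at 2001 and also covered all 3 exons, so that 95.9% of it was inside the SB Kac peak and 59.0% inside the control Kac peak. The share of the MT1X gene under a peak was 52.6% in control Kac, and the whole gene was covered in both lists of treated cells.

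The Kac peak at MT1X was thus longer in SB-treated than in control cells, which was not rare in the lists. Among 39348 pairs in which a control Kac peak overlapped a lone SB Kac peak and the reverse, the SB peak had a median length of 0.96 times the control peak. At MT1X it was 1.77 times as long, and 87.7% of the pairs had a lower ratio. The ratio was 0.96 at MT2A, 1.22 at MT1F and 0.66 behind MT1E. All 4 values were inside the range from 0.28 to 2.76 that held the middle 90 percent of the pairs. This set of pairs was chosen after seeing the peaks.

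**Figure D2:**
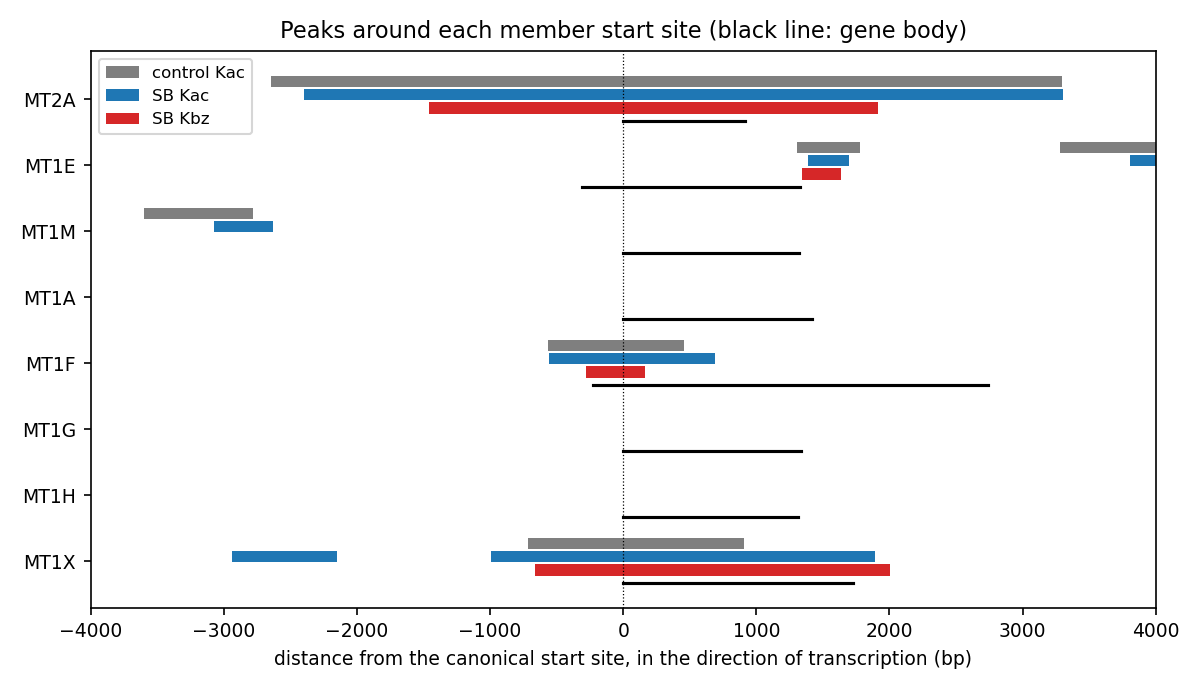
Peaks of the 3 lists around the canonical TSS of each member, in bp and in the direction of transcription, with the gene body as a black line. Peaks cover the TSS of MT2A, MT1F and MT1X, those of MT1E lie at or behind the end of the gene, and at MT1X the SB Kac and Kbz peaks reach past the gene end where the control Kac peak stops at 908 bp.

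MT1F, a member of the MT1 group in the middle of the cluster (56657731 to 56660698, plus strand, canonical TSS at 56657959), had compact marks around its TSS. Kac was called from 56657397 to 56658416 in control cells and from 56657405 to 56658648 in SB-treated cells. The Kbz peak was the narrowest, from 56657679 to 56658120, or from position -280 to 161. All of them covered exon 1 and none reached exon 2. The Kbz peak lay wholly inside both Kac peaks and covered 35.5% of the bases of the SB Kac peak. Its fold of 3.36 was at percentile 30.2 of the Kbz list, while the SB Kac peak stood at percentile 84.2 and the control Kac peak at 90.7. The difference of rank between SB Kac and Kbz, of -54.0 percentile points, was the largest among the members. The median over 20129 such pairs was -24.8 points, and 10.5% of the pairs had a lower value than MT1F. The difference was -34.0 at MT2A, -24.5 behind MT1E and -12.4 at MT1X, and 35.7%, 50.6% and 70.6% of the pairs were lower.

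MT1E (56625475 to 56627112, plus strand, canonical TSS at 56625781) was the exception in position. Its peaks did not lie at the promoter but at the end of the gene. The control Kac peak, from 56627083 to 56627557, touched the last exon, in its 3′ untranslated part, with 1.83% of the gene. The SB Kac peak (56627167 to 56627480) and the Kbz peak (56627123 to 56627419) began behind the gene, with 54 and 10 bp in between. The canonical TSS was 1301 bp from the nearest control Kac peak, 1385 bp from SB Kac and 1341 bp from Kbz. These were short peaks of 475, 314 and 297 bp. In the control Kac list the fold of this peak was at percentile 91.9, higher than at MT2A, in SB Kac it was at 66.5 and in Kbz at 42.0. A lower difference of rank between the Kac lists was found in 12.5% of all pairs.

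The sequence under the Kbz peak behind MT1E is shown because it is the one marked site of the members that is no promoter. It holds no annotated exon, its CpG ratio is 0.20 and its GC content 45.5%, against 0.66 to 0.96 and at least 70% before the TSS of the 4 members with peaks. Those are promoter windows and not peaks. Under the other Kbz peaks the CpG ratio was closer, at 0.48 (MT2A), 0.65 (MT1F) and 0.31 (MT1X), with GC contents of 53.7%, 67.6% and 55.8%. Capitals again mark the core of the metal response element, with 1 match.
Behind MT1E (chr16:56627123-56627419, plus strand): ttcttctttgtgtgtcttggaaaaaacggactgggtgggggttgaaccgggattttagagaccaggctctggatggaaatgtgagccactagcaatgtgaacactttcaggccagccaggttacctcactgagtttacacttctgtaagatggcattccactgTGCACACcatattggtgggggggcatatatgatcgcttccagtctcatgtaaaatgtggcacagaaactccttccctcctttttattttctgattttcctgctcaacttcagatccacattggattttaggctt

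**Figure D3:**
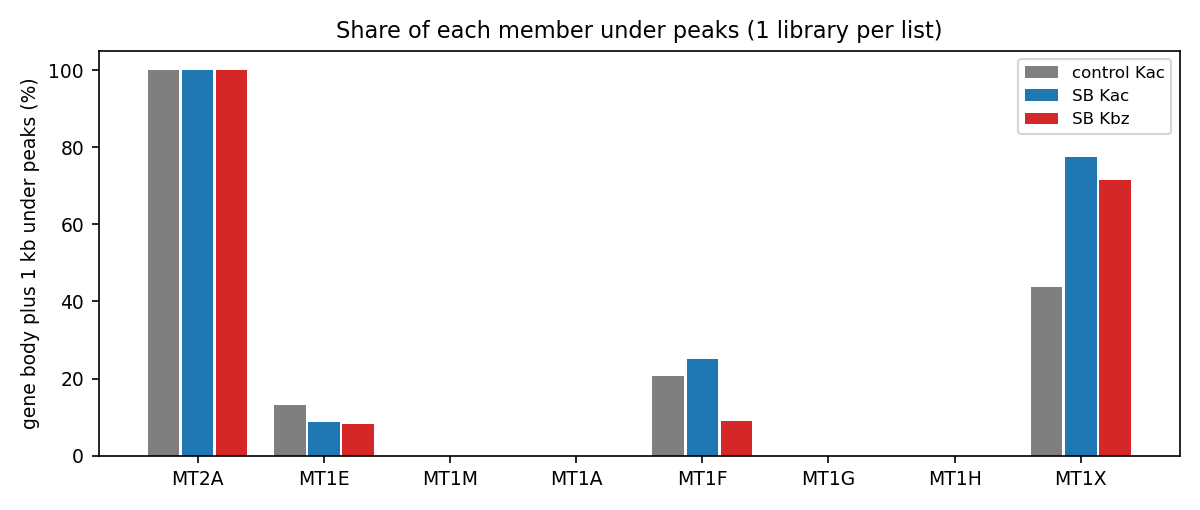
Share of each member, with 1 kb on either side, that lay under peaks of control Kac, SB Kac and SB Kbz, in percent. MT2A is wholly covered in each list, MT1X is at 43.7% (control Kac), 77.4% (SB Kac) and 71.6% (Kbz), and MT1M, MT1A, MT1G and MT1H are at 0.

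The order of the members by the covered share of this window was the same in each list, with MT2A first, then MT1X, MT1F and MT1E, and the 4 others at 0. MT1F went from 20.5% before SB to 25.04% after it for Kac, with Kbz at 8.90%. MT1E had 13.1%, 8.63% and 8.16%. The distance in Kbz between MT1F and MT1E was thus below 1 percentage point, and without replicates their order in that list cannot be told from error. The mean over the 8 members was 22.2% (control Kac), 26.4% (SB Kac) and 23.6% (Kbz), and the median was 6.53%, 4.32% and 4.08%. Over all protein-coding genes the means were 13.8%, 13.7% and 6.37% and the medians 6.94%, 6.96% and 2.06%. These shares depend on gene length, since a peak of a given length fills more of a short window. The windows of the members measured only 2914 to 4968 bp, and the part of length in the differences was not tested.

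**Figure D4:**
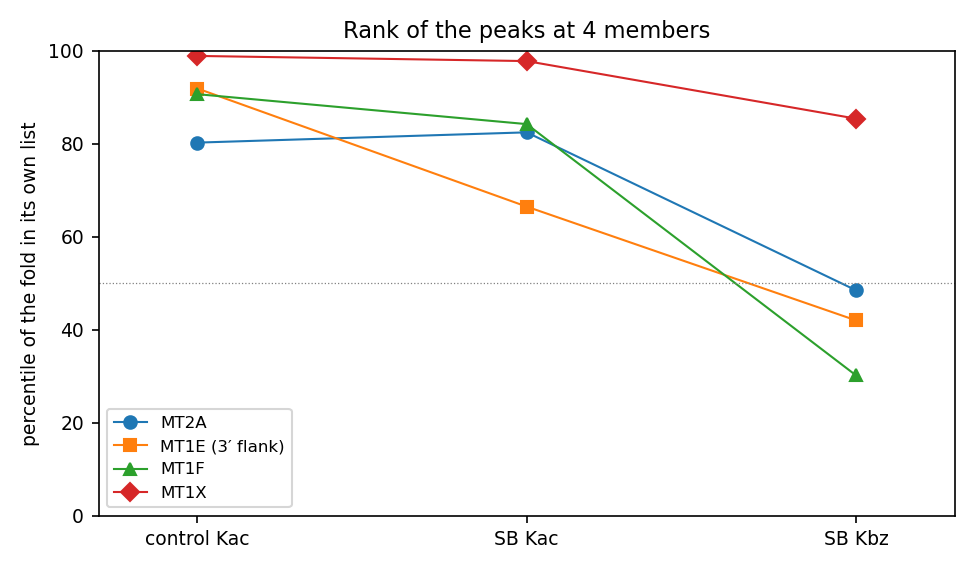
Percentile of the fold within its own list for the peaks at MT2A, MT1E, MT1F and MT1X in control Kac, SB Kac and SB Kbz, where lines join the peaks of a site and the dotted line is the list median. MT1X ranks highest in each list, between 85.4 and 98.9, and MT2A, MT1E and MT1F are below the median of the Kbz list, where peaks that overlap SB Kac peaks have in general a lower rank (median difference -24.8 points).

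Of the members with no peak, MT1A, MT1G and MT1H were not close to one, while MT1M was nearer to Kac peaks. MT1G and MT1H, a pair of genes that point away from each other with 1749 bp between their start sites, lay between MT1F and MT1X. The gene body of MT1G (56666730 to 56668065, minus strand) was 8313 bp from the nearest control Kac peak, 8081 bp from SB Kac and 8609 bp from Kbz. For MT1H (56669814 to 56671129, plus strand) the distances were 10622, 8401 and 10675 bp. MT1A (56638666 to 56640087, plus strand) was 8784, 8635 and 11246 bp away. MT1M (56632659 to 56633981, plus strand) had the nearest Kac peaks, at 2777 bp in control and 2628 bp in SB-treated cells, and its nearest Kbz peak at 5239 bp. The widest stretch with no peak held MT1M and MT1A and measured 27515 bp (control Kac), 27374 bp (SB Kac) and 30259 bp (Kbz).

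Since the authors kept uniquely mapped reads of 50 bp and these genes are copies, it was asked how much of each gene can be read at all. Of the 50-base stretches within 500 bp of the TSS, all occurred at a lone place in the chromosomes of hg38 for MT2A, MT1E, MT1A, MT1F and MT1X. This was 99.7% for MT1G and MT1H and 95.3% for MT1M. Over the gene with its 1 kb flanks the share was 88.7% for MT1E, 90.3% for MT1M, 91.1% for MT1G and 92.5% for MT1H. It was 97.1% for MT2A and at least 99.1% for MT1A, MT1F and MT1X. Around the TSS MT2A, MT1F and MT1X, which had peaks there, were thus wholly unique. So were MT1E and MT1A, which had no peak over the TSS, and MT1G and MT1H lacked only 3 of 952 stretches each. The part of uniqueness in the missing peaks was not tested. Of the stretches of MT1M, MT1G and MT1H that occur again, 317 of 318, 293 of 294 and 233 of 245 had a copy in or within 5 kb of the cluster. The peaks themselves were at least 97.5% unique, and those at the end of MT1E wholly so. Only exact matches were counted, so reads with a mismatch may be less unique than this.

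**Figure D5:**
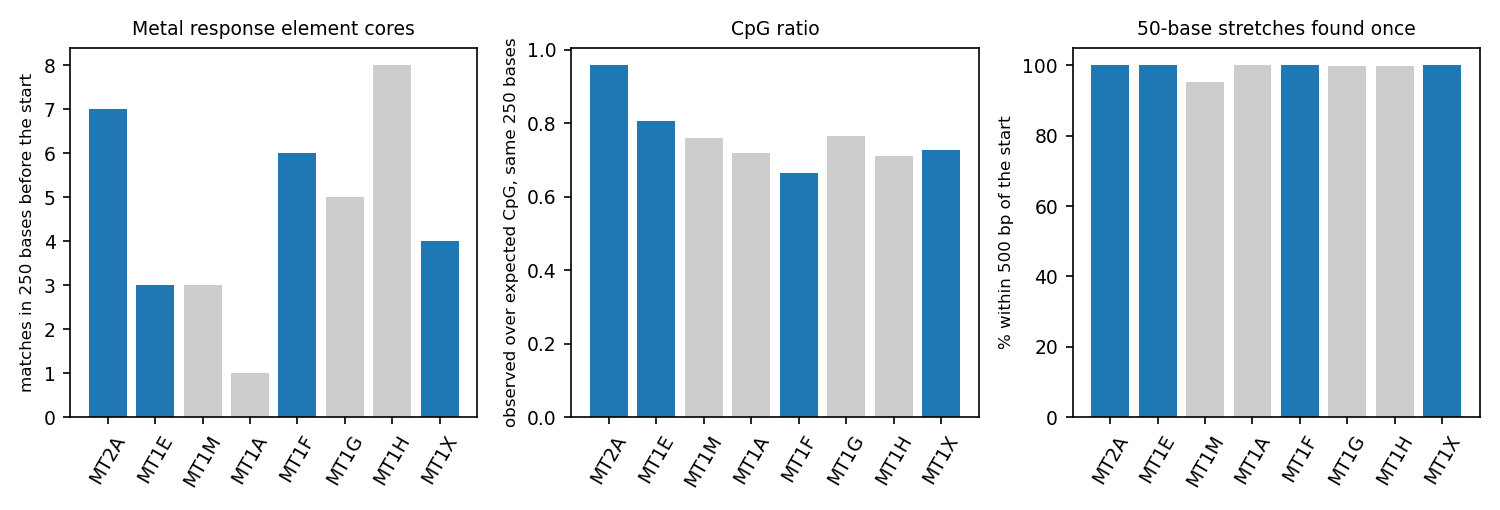
Matches to the metal response element core and CpG ratio in the 250 bases before the TSS, and percent of 50-base stretches within 500 bp of the TSS that occur at a lone place in hg38, for members with peaks (blue) and without (grey). Matches and CpG ratios of the 2 colours overlap, with the most matches (8) at MT1H, without peaks. All 4 blue members are wholly unique, as is MT1A in grey, with MT1G and MT1H at 99.7% and MT1M lowest at 95.3%. MT1E is blue for peaks at the end of its gene, and its TSS was under no peak.

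Of the peaks beyond the members, SB Kac had 3 and control Kac 1. A pair lay between MT1E and MT1M, from 56629061 to 56629881 in control Kac and from 56629584 to 56630030 in SB Kac, with 36.3% of the control peak shared. Its fold was at percentile 59.1 in control Kac and 10.8 in SB Kac, and 3.06% of all pairs had a lower difference. The other SB Kac peaks had no counterpart in control cells. The first (56617790 to 56619048, percentile 46.2) lay on the pseudogene MT1L and the lncRNA ENSG00000291105, and the second (56679531 to 56680322, percentile 13.5) in front of MT1X, ending at position -2148 from its TSS. Of the SB Kac peaks, that between MT1E and MT1M and that in front of MT1X, with -log10 q of 1.42 and 1.56, did not reach the stated false discovery rate of 0.01. Kbz was called at none of them.

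Between the first and the last member 13 other genes are annotated, most of them metallothionein pseudogenes and lncRNAs. In or within 1 kb of these 13, control Kac had peaks at 2, SB Kac at 4 and Kbz at 2. ENSG00000260823 and ENSG00000259827 had peaks of each list, those of MT2A and MT1X, since the latter starts at the same base as MT1X. MT1L and ENSG00000291105 had SB Kac only. MT1B, a coding gene between MT1A and MT1F, and the pseudogenes MT1JP, MT1DP, MT1CP and MT1IP had none. MT3, the metallothionein of brain, and MT4, that of squamous epithelia, lie before MT2A and had no peak in any list. NUP93, a nuclear pore gene and the first coding gene behind MT1X, had its TSS under peaks of each list.

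Other genes of metal handling were counted by the same rule. A list of 34 genes held MTF1, the metal transporter families SLC30A1 to SLC30A10 and SLC39A1 to SLC39A14, and copper proteins. All 34 had a control Kac peak in or within 1 kb of the gene, 33 had SB Kac and 27 had Kbz, against the 80.1%, 79.0% and 68.9% of all protein-coding genes given above. The exception for SB Kac was SLC30A8, the zinc transporter of pancreatic islets, named after its value was seen, with 0.18% of its window under control Kac. The TSS was under a peak in 27 (control Kac), 28 (SB Kac) and 21 (Kbz) of the 34, against 59.1%, 60.4% and 45.8% of coding genes. By group, the SLC30A genes had a Kbz peak in 8 of 10, the SLC39A genes in 11 of 14 and the copper proteins and others in 7 of 9. MTF1 itself had peaks of each list over its TSS. SLC30A1, the exporter of the plasma membrane and a known MTF1 target, had its TSS under an SB Kac peak with neither of the others there, and its window was covered to 29.2%, 39.9% and 10.7% in this order of lists: control Kac, SB Kac, Kbz.

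In the same list, the genes with shares nearest to the mean metallothionein were named by a distance over the 3 lists, in percentage points of covered window. They were SOD1, the copper and zinc superoxide dismutase (distance 6.11), ATOX1, a copper chaperone (11.7), and CCS, the chaperone of SOD1 (15.6). The window of SOD1 was covered to 21.6% (control Kac), 30.3% (SB Kac) and 18.9% (Kbz). The mean it was compared with joins genes that are wholly covered and genes at 0, so no member is itself like it.

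A stricter threshold removed most of the Kbz calls. When peaks needed a -log10 q of 5 or more, MT1X alone kept Kbz, as gene and as TSS, so 1 of 8 members had Kbz in reach, against 48.7% of protein-coding genes, and over the TSS, against 33.7%. Control Kac was then still present at 4 members, against 57.5%, and SB Kac at 3, MT2A, MT1F and MT1X, against 62.3%. MT1X was the member with all lists, a state of 43.7% of coding genes. It was also the one with all lists when 15000 peaks were taken from each, against 42.0%. Control Kac, SB Kac and Kbz were then each present at 3 members, against 48.3%, 56.5% and 56.9% of coding genes. MT2A was lost from control Kac, MT1E from SB Kac and MT1F from Kbz. With 3 kb to either side, MT1M alone of the members without peaks reached the Kac peaks between it and MT1E, in both conditions, and no Kbz peak.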

How the data were processed

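Chromatin of cells labelled HepG2 was digested by the authors with micrococcal nuclease, immunoprecipitated and sequenced as single reads of 50 bp. Per the labels and the methods of the study, reads were aligned with Bowtie2 2.2.6 to hg38, uniquely mapped reads were retained, duplicates were removed with SAMtools 0.1.19, and peaks were called per library with MACS2 2.1.1 at a false discovery rate of 0.01. The background track and the broad setting are not given in the sources used here. The deposited fold is a linear ratio of read density over background. Thresholds were set on the deposited −log10 p and −log10 q, which like the fold are means over a broad peak. The deposited score is a display integer and was not used. The lowest −log10 q was 1.31, so the lists reach beyond the stated rate. Broad calling joins neighbouring enrichment, and removal of reads that map repeatedly can hide copies.

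Peaks on 24 chromosomes were kept without 3 control Kac peaks of other sequences, and 0 peaks reached past a chromosome end. Genes and the canonical TSS came from GENCODE 44. The genes, lists and comparisons were chosen with earlier results of these data known. Besides the 8 members, the text names other genes between them, the first coding gene outside each end with MT4, and, of a metal handling list, MTF1, SLC30A1 and the 3 genes nearest in covered share. SLC30A8 of that list was named in addition, after its value was seen. Alternatives covered the threshold, list length, merging, overlap, window and gene model. Overlaps were tested on simulated data: of 3000 queries planted on peaks 3000 were recovered and of 3000 planted in gaps 0 were called, and 0 of 3 lists differed from bedtools 2.31.1. Python 3.11.15 was used with numpy 2.4.6, pandas 2.3.3, scipy 1.17.1, pysam 0.24.0, numba 0.67.0 and matplotlib 3.10.9.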

Additional observations from a re-analysis of the deposited data

How the results depend on the processing

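The 13 counts and shares of the cluster were recomputed with 1 choice changed at a time, 90 values in all. Of these, 78 stayed within 1.5 times of the original count or within the 95% Wilson interval of the original share, and 12 moved further. That interval took each of the 75613 bases as independent, although the covered bases lie in a few contiguous peaks of 1 library. It is thus too narrow and does not measure error, and small shifts of a share were counted as moved. With the −log10 q threshold at 5, the members with Kbz, those with the TSS under Kbz, those with all lists and the distinct Kbz peaks each came to 1, and the cluster was covered to 8.49% by control Kac, 9.62% by SB Kac and 3.16% by Kbz. With 15000 peaks per list, taken by −log10 p, 1 member, MT1X, had all lists, against 42.0% of protein-coding genes, and coverage was 4.13% (control Kac), 9.62% (SB Kac) and 6.09% (Kbz). Control Kac there fell below Kbz, since the peak at MT2A was no longer in the control list. With that threshold at 2, SB Kac covered 11.7%. Both alternatives of the threshold keep fewer peaks by construction. No paired analysis was possible because all groups held 1 library, and for the same reason none could be left out. The depth of each library is unknown, and a deeper library gives more and longer peaks from the same chromatin.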
